A study of Mus musculus with 7 samples.

Results

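The 9 genes described here encode parts of the tight junction, and they were followed through the cell types of 7 mammary tumors. They were Cldn1, Cldn3, Cldn4, Cldn5, Cldn7, Tjp1, Ocln, F11r and Cgn, picked by symbol out of 33710 gene rows, and all 9 had a row. Their levels were read in 7 cell classes, and the pattern across those classes, mainly the contrast of tumor with hormone-sensing luminal cells, was part of how they came to be chosen. Their levels by class are therefore given as a description, without a test.

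Each of the 7 Drop-seq libraries came from 1 spontaneous mammary tumor of an MMTV-PyMT;HK2 f/f mouse, taken 3 months after a tumor could be felt and labelled wild type. In these animals the polyoma middle T antigen (PyMT) is driven in mammary epithelium by the mouse mammary tumor virus promoter, and exons of Hk2 are flanked by loxP sites. These are the controls of a study of systemic HK2 deletion by a tamoxifen-activated Cre, and tumors with the deletion are not analysed here. By the study's methods the controls carried no Cre but received tamoxifen, an estrogen receptor modulator, on consecutive days once a tumor could be felt. All 7 tumors shared that exposure, so its part in the hormone-sensing values cannot be told apart. Titles of replicates 1 to 4 end in CB and those of replicates 5, 7 and 8 in WT, a split whose meaning the sources used here do not give. Barcodes with 200 to 6000 detected genes, mitochondrial genes left out, were taken as cells, which gave 15047 of them, and 5 barcodes occurred in over 1 library.

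Tight junctions seal the space between neighboring epithelial or endothelial cells. Claudins are the transmembrane strands that set which ions pass, occludin is a second transmembrane component, and JAM-A, the product of F11r, is an immunoglobulin-type adhesion molecule beside them. Inside the cell ZO-1, encoded by Tjp1, and cingulin, encoded by Cgn, tie the strands to actin. In the mammary gland luminal cells carry these junctions, and the transcription factor SNAIL, whose binding motif is an E-box, is known for repressing claudin and occludin genes.

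Classes were set from marker UMIs in each cell, with no junction gene among the markers. A UMI is the tag that marks 1 captured mRNA molecule. The tumor class held 6130 cells, the hormone-sensing luminal class 914, the myoepithelial class 69, fibroblasts 1013, endothelial cells 94, macrophages 1845 and T/NK cells 1740. Sums of at least 10 cells per mouse were available in 7 mice for each class, except in 3 mice for the myoepithelial class (replicates 1, 4 and 5) and in 3 for the endothelial class (replicates 4, 5 and 8). PYMT, the transgene, stood at 2318 ± 1426 CPM (UMIs scaled to a total of 1000000 per sum) in the tumor class and at 91.4 ± 74.8 CPM in the hormone-sensing class (SD, n = 7). PYMT was itself among the tumor markers, so this gap was built into the classes and is no check of them. The other tumor markers were Csn3, Trf, Wfdc18, Cp, Slpi, Elf5, Muc15, Lalba and Csn1s1, which mark alveolar-type cells. A cell could therefore enter the tumor class without a PYMT UMI. Tumor and hormone-sensing cells differ in lineage as well as in PYMT, and the parts of lineage and transformation cannot be told apart. The myoepithelial class still held Epcam at 551 ± 324 CPM (SD, n = 3), and its summed tumor markers took 0.292 to 0.469% of its UMIs. When cells were clustered, 24 of its 69 cells fell into tumor clusters and 43 into the myoepithelial cluster. The part of tumor RNA in its junction gene values was not tested.

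On mouse genome GRCm38, Cldn3 (ENSMUSG00000070473.4) lies on chromosome 5 from 134986214 to 134987472, and its neighbor Cldn4 (ENSMUSG00000047501.3) from 134945119 to 134946934. Exons of Wbscr25 overlap Cldn3 on the other strand. Cldn1 (ENSMUSG00000022512.3) lies on chromosome 16 from 26356642 to 26371841, and Cldn5 (ENSMUSG00000041378.2) on the same chromosome from 18776847 to 18778262. Cldn7 (ENSMUSG00000018569.12) spans 69964779 to 69967885 on chromosome 11, Tjp1 (ENSMUSG00000030516.14) 65296165 to 65527781 on chromosome 7 and Ocln (ENSMUSG00000021638.12) 100496507 to 100552718 on chromosome 13. F11r (ENSMUSG00000038235.4) spans 171437535 to 171464603 on chromosome 1 and Cgn (ENSMUSG00000068876.14) 94760069 to 94786492 on chromosome 3.

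The promoters of Cldn1 and Cldn4 are shown because these claudins lay furthest apart in the tumor contrast below, in opposite directions. The sequences are RefSeq's for GRCm38.p6, both on the minus strand, and run from 250 bases before the gene start to 30 bases after it. Cldn1 is at chr16:26371810-26372089 and Cldn4 at chr5:134946905-134947184. Capitals mark the E-box CAGGTG or, on the other strand, CACCTG.
Cldn1: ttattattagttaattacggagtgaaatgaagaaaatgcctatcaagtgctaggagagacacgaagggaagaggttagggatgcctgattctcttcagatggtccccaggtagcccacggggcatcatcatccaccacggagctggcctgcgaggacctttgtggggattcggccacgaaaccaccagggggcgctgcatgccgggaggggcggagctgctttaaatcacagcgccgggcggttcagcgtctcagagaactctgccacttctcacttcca
Cldn4: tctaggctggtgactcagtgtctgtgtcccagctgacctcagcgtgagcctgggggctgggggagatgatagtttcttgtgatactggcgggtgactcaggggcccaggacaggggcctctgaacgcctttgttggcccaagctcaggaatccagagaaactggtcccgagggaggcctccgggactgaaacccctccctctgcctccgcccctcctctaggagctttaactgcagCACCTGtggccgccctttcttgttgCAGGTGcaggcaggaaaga

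The Cldn4 window held 2 matches, 1 beginning 14 bases before the start and 1 beginning 12 bases after it, and the Cldn1 window held 0. Over the full windows of 300 bases, 6 of the 11 windows of the 9 genes held a match, at Cldn3, Cldn4, Cldn7, Ocln and F11r, against 20.2% of all 32851 windows in the table. The Ocln windows overlap, and the match in the first is also in the second. The letters CAGGTG also match the general E-box CANNTG, which 72.3% of all windows held. A match is a run of letters and says nothing of binding.

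Of the 9 genes, 6 had their highest mean in a luminal class. Cldn1, Cldn3 and Cldn7 were highest in tumor cells, and Cldn4, Ocln and Cgn in hormone-sensing luminal cells. The other 3, Cldn5, Tjp1 and F11r, were highest in the endothelial class, whose means rest on 3 mice. Of 36 other junction genes with at least 20 CPM in a class, 5 were highest in tumor and 15 in hormone-sensing luminal cells. The rest were highest in myoepithelial (6), fibroblast (5) or endothelial cells (5). A share over all genes was not counted. UMIs were counted at the 3′ end, so values were not divided by transcript length and levels are not compared between genes.

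**Figure D1:**
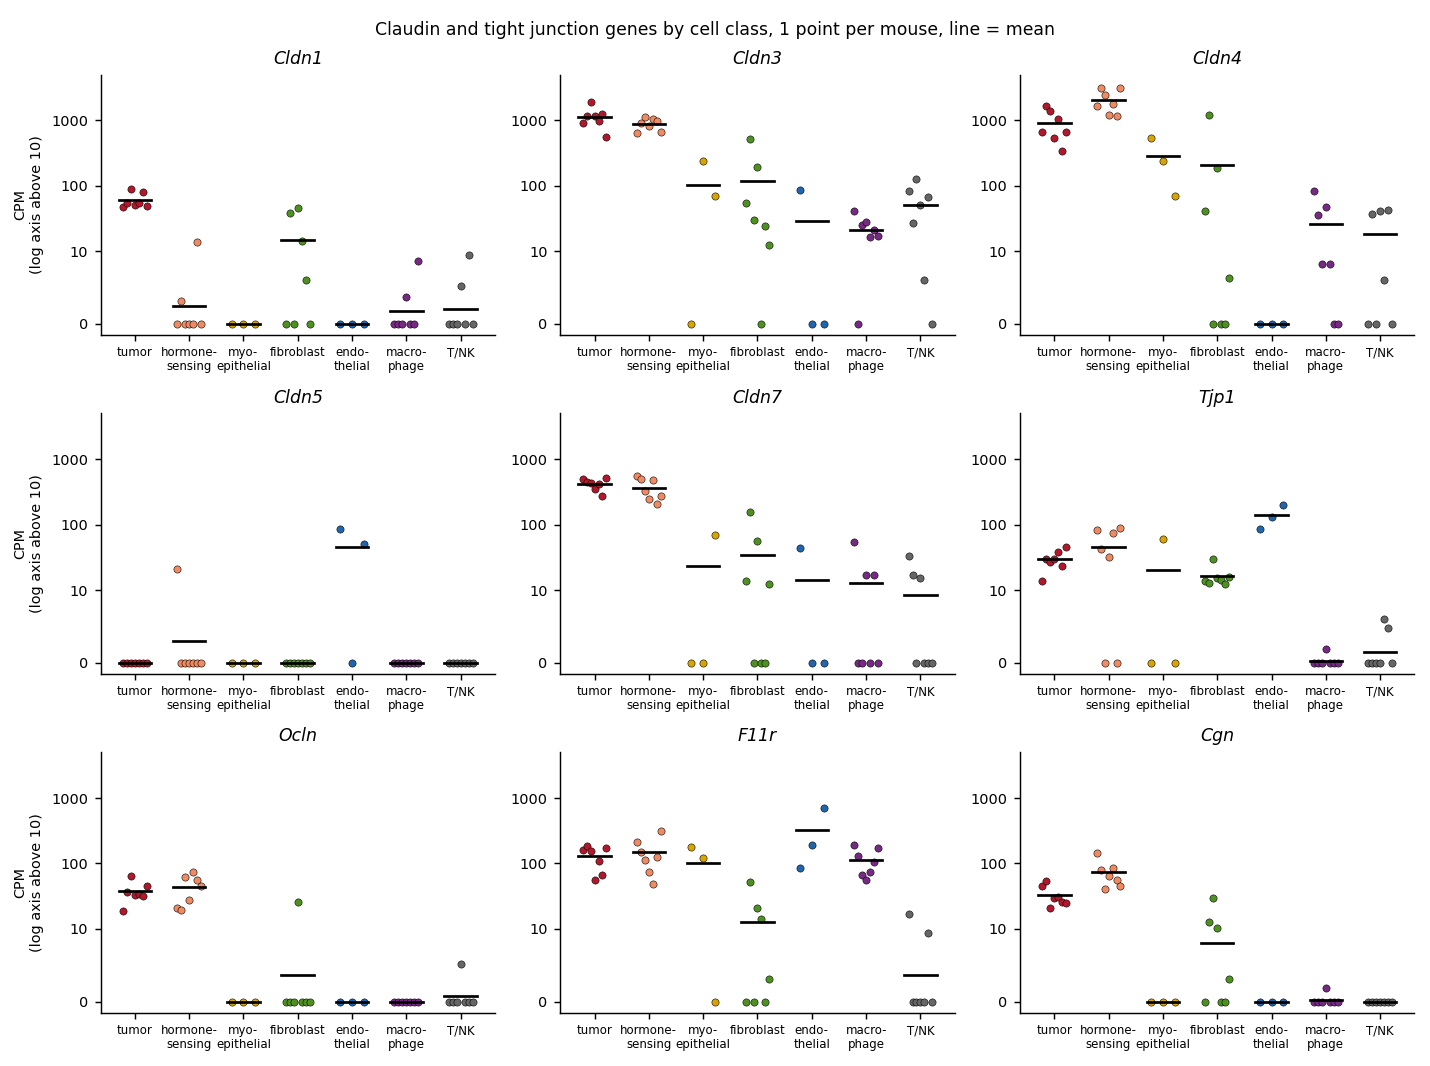
Level of each gene in CPM (vertical axis, logarithmic above 10) in 7 cell classes, with 1 point per mouse and a line at the mean. Cldn3, Cldn4 and Cldn7 sat high in both luminal classes, Cldn1 was above 47 in every tumor sum, and F11r was the gene that macrophages carried as well.

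Claudin-1 separated tumor cells from hormone-sensing luminal cells. Cldn1 stood at 47.7 CPM in the lowest tumor sum, 53.8 in the median and 88.7 in the highest, and at 60.5 ± 16.4 CPM on average (SD, n = 7). In hormone-sensing cells it was at 0 in 5 of 7 mice, with 3.2 CPM in replicate 2 and 14.0 CPM in replicate 7. The observed values of the classes did not overlap. Hormone-sensing sums ran from 22275 to 752262 UMIs, however. In the smallest of them 3 UMIs would exceed every tumor sum, so a 0 there could not be told apart from the tumor level. The 457 tumor UMIs against 2 hormone-sensing UMIs gave a pooled ratio of 42.4, with a 95% counting interval from 11.7 to 352. The ratio of the means over mice was 24.6. Fibroblast sums ranged from 0 to 46.3 CPM, just below the lowest tumor sum. Endothelial and myoepithelial sums held no Cldn1 UMI. There 3 UMIs would equal 51.3 and 81.9 CPM, near or above the tumor means of 51.4 and 50.8 CPM in the same mice. Neither class could therefore be told apart from tumor cells. When classes came from clusters in place of marker UMIs, the hormone-sensing mean of Cldn1 was 12.0 CPM, and the edgeR log2 fold change fell from 5.19 to 3.14.

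Claudin-4 went the other way. Cldn4, a sealing claudin of luminal epithelium, ranged from 336 to 1680 CPM in tumor cells, with a median of 664, and from 1161 to 3143 CPM in hormone-sensing cells, with a median of 1776. It was lower in the tumor cells of all 7 mice, although the ranges of the 2 classes overlapped. The mean difference within mice was -1.27 ± 0.55 in log2(CPM + 10) (SD, n = 7), and the level in tumor cells was 0.435 times that in hormone-sensing cells. Within titles ending in CB the difference was -1.04, and within the others -1.59.

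Cingulin followed the same direction. Cgn was at 21.1 to 53.9 CPM in tumor cells, with a median of 30.1, and at 41.1 to 147 CPM in hormone-sensing cells, with a median of 65.1. It was lower in tumor cells in 7 of 7 mice, by a mean log2 difference of -0.91 ± 0.35. The 2 ranges overlapped between 41.1 and 53.9 CPM.

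In log2(CPM + 10) the remaining members had no difference beyond their spread between mice. Cldn3 stood at 1126 ± 408 CPM in tumor and 885 ± 180 CPM in hormone-sensing cells and was higher in tumor cells in 5 of 7 mice (log2 difference 0.29 ± 0.37, SD, n = 7). All 4 mice of the CB titles had more of it in tumor cells, against 1 of 3 of the others, with mean log2 differences of 0.52 and -0.02. Cldn7 stood at 420 ± 82.9 and 367 ± 135 CPM, higher in tumor cells in 4 of 7 mice. For Ocln, F11r and Tjp1 the mean log2 differences were -0.10 ± 0.53, -0.09 ± 0.69 and -0.07 ± 1.40, each smaller than its spread between mice. On edgeR's TMM scale the values of Ocln and F11r turned to 0.18 and 0.09, and those of Tjp1, Cldn4 and Cgn were -0.18, -1.06 and -0.92. On that scale Cldn3 was at 0.51 (standard error 0.15) and Cldn7 at 0.35 (0.16). Their pooled ratios were 1.35 (95% counting interval 1.27 to 1.43) and 1.21 (1.09 to 1.34). These errors and intervals are a description and no test, since the contrast was part of how the members were chosen. The counting intervals leave out the spread between mice. Tjp1 stood at 29.5 ± 10.3 CPM in tumor and 45.8 ± 37.8 CPM in hormone-sensing cells (SD, n = 7), where it was read from only 49 UMIs and was at 0 in replicates 3 and 7. Those were the 2 mice with more of it in tumor cells, by 1.86 and 1.72 in log2(CPM + 10), and the other 5 had less. Its pooled ratio was 0.724, with a 95% counting interval from 0.527 to 1.01.

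**Figure D2:**
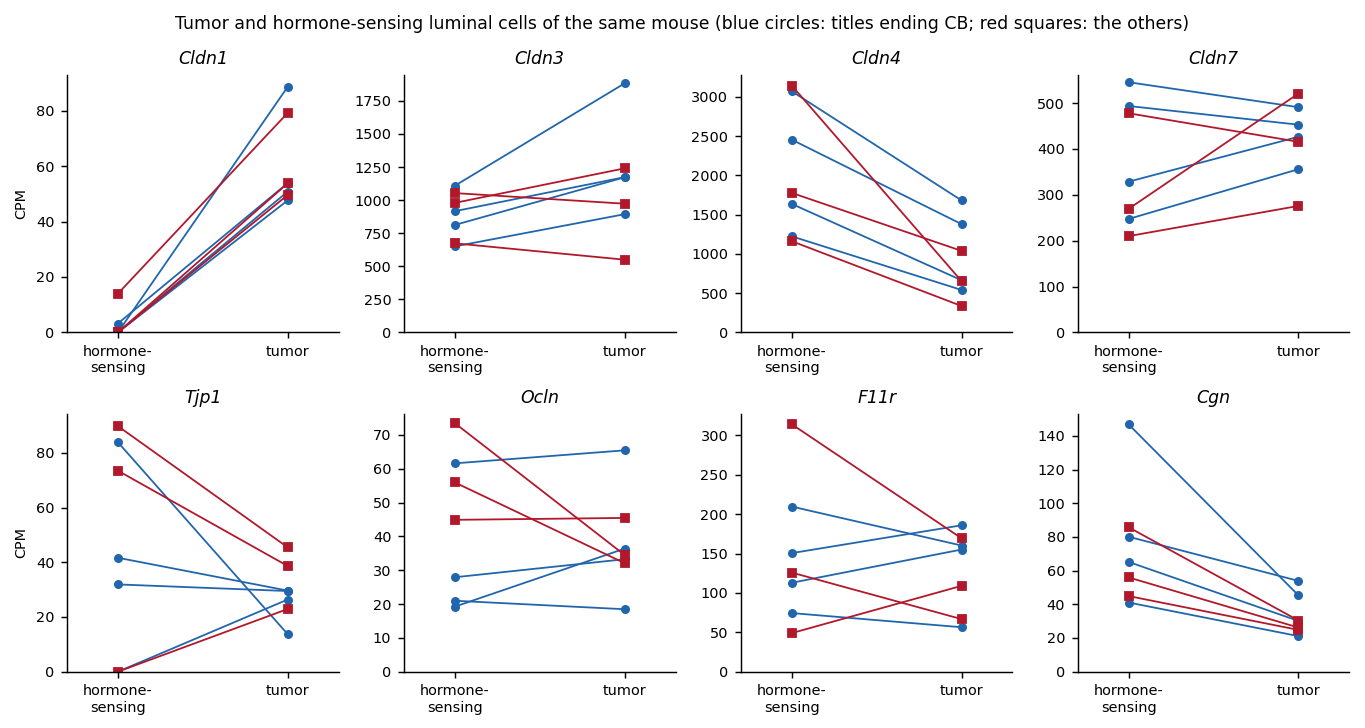
Level in CPM (vertical axis, from 0) in hormone-sensing luminal and tumor cells of the same mouse, joined by a line, with blue circles for titles ending in CB and red squares for the others. All 7 lines rose for Cldn1 and fell for Cldn4 and Cgn, whereas those of the other 5 genes crossed.

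The other genes of the junction and its polarity complexes were tested in the same contrast. The choice of the 9 did not rest on them. Their list and the contrast were still drawn up with earlier results of these data known, so the p-values are not an independent test. Of 52 listed genes 47 had a row and 22 passed the low-count filter. In tumor cells 4 were higher and 6 lower, 12 did not pass an adjusted p of 0.05 by edgeR's quasi-likelihood test, and of all 6496 genes tested 17.5% were called higher and 12.3% lower. The median log2 fold change of the 22 was 0.05, against 0.06 over all genes tested.

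Of the 22 tested, Cldn10, an ion channel-forming claudin, was lower in tumor cells by the most. It stood at 144 ± 43.7 CPM in hormone-sensing and 12.4 ± 11.5 CPM in tumor cells (log2 fold change -3.38, standard error 0.31, adjusted p = 6.82e-12 by edgeR). Amotl1, an angiomotin family member, was at 9.89 CPM in hormone-sensing and 71.2 CPM in tumor cells (log2 fold change 2.81). Cgnl1, the paralog of cingulin, was at 57.5 and 192 CPM (log2 fold change 1.90). Each was higher in tumor cells in 7 of 7 mice. Below the low-count filter, and named after its values were seen, was Cldn6, a claudin with 56 UMIs in hormone-sensing and 1 UMI in tumor cells, a pooled ratio of 302 with a 95% counting interval from 51.9 to 12119. It was at 54.8 ± 52.4 CPM in hormone-sensing cells (SD, n = 7) and was not tested. The other way lay Cldn2, a pore-forming claudin also below the filter and named after its values were seen, with 175 UMIs and 23.8 ± 3.98 CPM in tumor cells (SD, n = 7) and 0 of 1384860 UMIs in hormone-sensing cells. Cgnl1 was higher and Cgn lower in tumor cells. Lower in tumor cells were also Arhgef2, the GEF-H1 exchange factor that cingulin binds (log2 fold change -0.91), Tjp3, which encodes ZO-3 (-0.85), Ybx3, the ZO-1 partner also called ZONAB (-0.72), Lsr, a tricellular junction protein (-0.68), and Afdn, which encodes afadin (-0.60). Magi3 (0.82) and Marveld2, which encodes tricellulin (0.67, adjusted p = 0.048 by edgeR), were higher. Marveld2 lost its call in 12 of 17 alternative settings and Magi3 in 10 of 16. Both were lost without replicate 2, 4, 5 or 7, at an adjusted p of 0.055 to 0.36 by edgeR. Afdn did not pass without replicate 2 (0.057), nor Tjp3 and Ybx3 without replicate 4 (0.061 and 0.062). In all, Afdn lost its call in 3 of 17 settings, Tjp3 in 3 of 16 and Ybx3 in 4 of 17. Lsr lost it in 2 of 17 and Arhgef2 in 1 of 16, none of them by leaving out 1 mouse. With libraries scaled to their size alone, all genes shifted from a median of 0.06 to -0.09, and the 1135 higher and 796 lower calls became 836 and 1141. None of the 10 changed direction there.

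**Figure D3:**
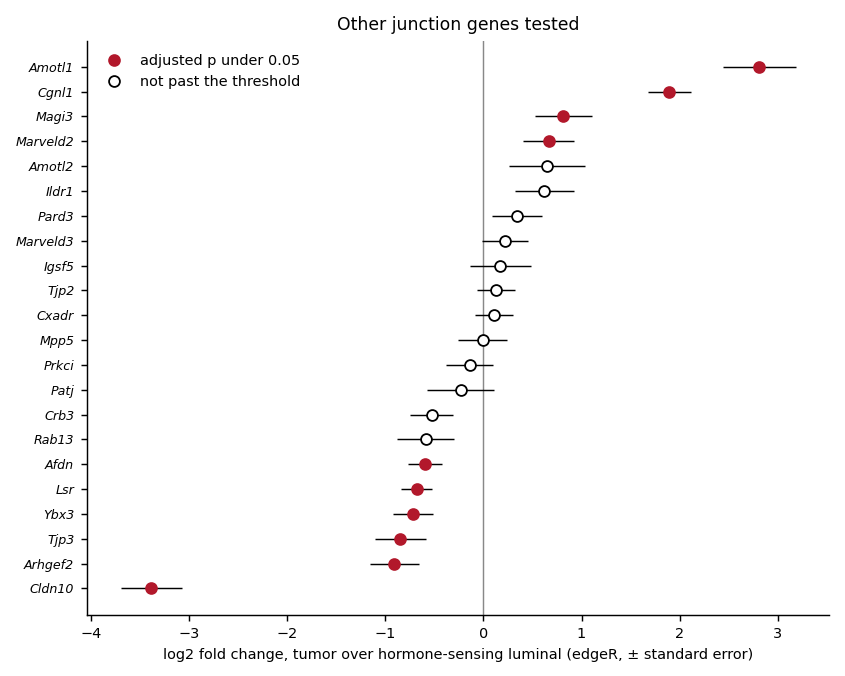
Fold change of the 22 other junction genes tested, tumor over hormone-sensing luminal cells, on a log2 axis with standard errors from edgeR, where filled points passed an adjusted p of 0.05. Amotl1 and Cgnl1 lay furthest to the right and Cldn10, at -3.38, furthest to the left.

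Shares of cells with a UMI were compared at equal depth. After each cell was thinned to 300 UMIs, 27.7% of tumor cells held a Cldn3 UMI (exact binomial 95% interval 26.5 to 28.9%) and 15.8% a Cldn4 UMI (14.9 to 16.8%). In hormone-sensing cells the shares were 21.3% (18.6 to 24.2%) for Cldn3 and 33.8% (30.7 to 37.1%) for Cldn4. T/NK cells, which should lack both genes, gave 1.39% and 0.834%. Without thinning, the Cldn3 shares were 53.1% of tumor, 55.0% of hormone-sensing and 1.95% of T/NK cells, so the higher share in tumor cells was seen only after thinning. Without thinning, the Cldn4 shares were 32.2% of tumor, 62.6% of hormone-sensing and 1.49% of T/NK cells, at median depths of 672, 960 and 436 UMIs. Intervals cover counting error only, and thinning left out 612 tumor, 60 hormone-sensing and 302 T/NK cells under 300 UMIs. Cells were pooled over mice, and 546 of the 914 hormone-sensing cells came from replicate 4, which weighs on the pooled ratios too. The shares are therefore a description, and overlap of their intervals is not read as a test.

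Cldn1 was found in 1.56% of thinned tumor cells (1.25 to 1.92%) and in 0 of 854 thinned hormone-sensing cells (0 to 0.431%). T/NK cells gave 0.0695% (1 cell, 0.00176 to 0.387%). Cgn was found in 0.960% of tumor cells (0.720 to 1.25%) and 1.87% of hormone-sensing cells (1.07 to 3.02%), and in 0 of 1438 T/NK cells. Thinned to 500 UMIs, which left 3912 tumor and 668 hormone-sensing cells, Cgn was found in 1.92% (1.51 to 2.40%) and 3.89% (2.56 to 5.65%). Cldn3 was then found in 41.7% (40.2 to 43.3%) and 37.1% (33.5 to 40.9%), and Cldn1 in 2.58% of tumor cells (2.11 to 3.13%) and 2 hormone-sensing cells (0.299%, 0.0363 to 1.08%). For Cldn4 the shares were 24.4% (23.1 to 25.8%) and 48.5% (44.7 to 52.4%). At either depth most tumor cells showed no UMI of Cldn1 or Cgn, and the shares do not divide cells into those that express a gene and those that do not.

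**Figure D4:**
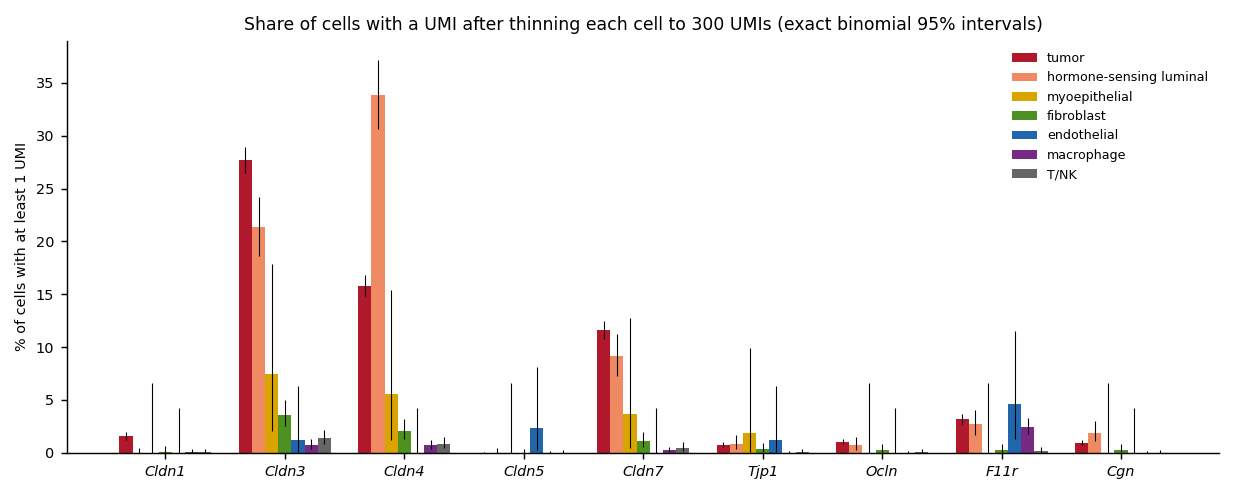
Percentage of cells with at least 1 UMI of each gene after thinning every cell to 300 UMIs, for 7 classes in color, with exact binomial 95% intervals. Cldn3, Cldn4 and Cldn7 were the genes found in over 5% of luminal cells. Cells were pooled over mice, so the intervals do not measure the spread between mice.

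Free RNA was read as a reference level. Hemoglobin took from 0.351% (replicate 3) to 40.9% (replicate 8) of its UMIs, which lowers the CPM of other genes there by differing amounts. In barcodes with under 200 genes, taken as droplets without a whole cell, Cldn3 averaged 402 ± 269 CPM and Cldn4 292 ± 191 CPM (SD, n = 7). Both genes lay above that level in the tumor and hormone-sensing cells of 7 of 7 mice. In macrophages and T/NK cells they lay below it in 7 of 7 mice, with T/NK levels of 51.3 ± 44.6 CPM for Cldn3 and 18.2 ± 21.0 CPM for Cldn4. The free RNA level is therefore not the amount of stray RNA within a cell, and lying above or below it does not decide expression. With classes from clusters the T/NK means were 106 and 54.2 CPM, and the macrophage mean of Cldn3 was 59.9 CPM in place of 21.3. Tjp1 and Cgn exceeded the free RNA level in the tumor cells of 5 of 7 mice. PYMT averaged 939 ± 330 CPM in free RNA (SD, n = 7), and tumor cells exceeded its free RNA level in 6 of 7 mice.

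JAM-A was the exception among immune cells. F11r stood at 114 ± 53.4 CPM in macrophages, with a range of 56.1 to 193 and a median of 107, against 129 ± 51.7 CPM in tumor cells (SD, n = 7). T/NK cells of the same tumors had 3.72 ± 6.68 CPM of it, below the macrophage sum in each of 7 mice. With classes from clusters the means were 120 CPM in macrophages and 11.3 CPM in T/NK cells. Macrophages were at 88.5% of the tumor level for F11r, whereas for Cldn1, Cldn3, Cldn4, Cldn7, Tjp1, Ocln and Cgn they were at 0 to 3.03%. The macrophage sum exceeded the free RNA level in 6 of 7 mice. After thinning, 2.48% of macrophages (1.80 to 3.33%) and 0.139% of T/NK cells (0.0169 to 0.501%) held an F11r UMI.

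In the endothelial class Cldn5, Tjp1 and F11r had their highest means, although for each the range overlapped that of hormone-sensing cells. Claudin-5 is the claudin of vascular endothelium, and Cldn5 was at 86.5, 0 and 50.3 CPM in the endothelial sums of replicates 4, 5 and 8. These rest on 3 UMIs, a pooled level of 51.3 CPM with a 95% counting interval from 10.6 to 150 CPM. Cldn5 had 0 UMIs among 7456059 in the tumor class, so it entered no test there, and 0 in fibroblasts, macrophages and T/NK cells. Over all mice 8.51% of the 94 endothelial cells held a Cldn5 UMI before thinning, and 1 hormone-sensing cell did. Tjp1 was at 86.5, 129 and 201 CPM in endothelial cells, above each of the 7 fibroblast sums, which ran from 12.2 to 30.2 CPM. F11r was at 86.5, 194 and 705 CPM, so replicate 8 set its mean.

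No member passed the low-count filter between endothelial and fibroblast cells, where 36.7% of the 839 genes tested passed an adjusted p of 0.05. The mean difference in log2(CPM + 10) within mice was 2.49 ± 0.56 for Tjp1 and 3.49 ± 2.09 for F11r (SD, n = 3), higher in endothelial cells in 3 of 3 mice. F11r rests on 19 endothelial UMIs and Tjp1 on 8. Cldn3 and Cldn4 in fibroblasts rested on replicate 2, where they reached 525 and 1216 CPM, and their means of 119 and 207 CPM became 51.9 and 38.6 CPM without it. The same fibroblast sum held Krt18, a luminal keratin, at 1818 CPM, against 43.3 to 997 CPM in the other mice, and 68 cells of the fibroblast class over all mice fell into the hormone-sensing cluster when cells were clustered. The part of those cells in the result was not tested. Of the other junction genes 2 were tested, and Esam, an endothelial adhesion molecule, rose (872 CPM in endothelial cells against 1.05 in fibroblasts, log2 fold change 7.91, adjusted p = 3.23e-06 by edgeR). With 1 fibroblast UMI its pooled ratio was 813, with a 95% counting interval from 139 to 32716.

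Against the myoepithelial class, the contractile cells that line the outside of ducts, the luminal claudins were higher in tumor cells. Cldn3 was at 0, 240 and 69.4 CPM in the myoepithelial sums of replicates 1, 4 and 5, and at 894, 1173 and 973 CPM in the tumor sums of the same mice. The groups did not overlap, and the mean difference in log2(CPM + 10) within mice was 4.12 ± 2.17 (SD, n = 3). Cldn4 was at 541, 240 and 69.4 CPM in the myoepithelial sums and at 664, 540 and 1038 CPM in the tumor sums, a difference of 1.72 ± 1.79. It was higher in tumor cells of all 3 mice, but the myoepithelial sum of replicate 1 lay just above the tumor sum of replicate 4. Cldn7 was at 0, 0 and 69.4 CPM against 491, 356 and 415 CPM, a difference of 4.42 ± 1.75.

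These myoepithelial values rest on 5 UMIs of Cldn3, 8 of Cldn4 and 1 of Cldn7, and the pooled counting interval of Cldn7 ran from 0.691 to 152 CPM. With classes from clusters the myoepithelial mean of Cldn7 was 66.0 CPM and with 1 marker UMI more 80.4 CPM, in place of 23.1, and that of Cldn4 was 54.5 CPM by clusters in place of 283. F11r stood at 100 ± 91.8 CPM in myoepithelial and 109 ± 51.9 CPM in tumor cells of the same mice, the former from 3 UMIs, with a pooled counting interval from 16.9 to 239 CPM. Cldn1, Ocln and Cgn had no UMI among the 36624 of the 3 myoepithelial sums, but 3 UMIs there would equal 81.9 CPM, above their tumor levels, so a difference was not detectable at this depth. Of the other junction genes, where edgeR called 1.55% of 5153 genes higher in tumor cells and 1.36% lower (80 and 70, against 36 and 98 with size scaling and 29 and 77 by DESeq2), 0 of 19 tested passed by edgeR, 6 of them at an unadjusted p under 0.05, and 0 passed by DESeq2, 2 of them at an unadjusted p under 0.05.

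Within the tumor class the members were also read in cells of different states. Cells with at least 1 UMI of a cell cycle list were set against the other tumor cells, 792 against 5338. Cldn3 stood at 356 to 1643 CPM in cycling cells, with a median of 825, and at 604 to 1977 CPM, with a median of 1186, in the others. Cldn4 stood at 235 to 1189 CPM, with a median of 600, and at 360 to 1809 CPM, with a median of 777. Ranges overlapped, but Cldn3 was lower in cycling cells in 7 of 7 mice and Cldn4 in 6 of 7.

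Of 8 members tested 4 were lower in cycling cells and 0 higher, where 8.84% of 5669 genes were called higher and 8.8% lower. The log2 fold changes were -0.43 for Cldn3 (standard error 0.09, adjusted p = 0.0016), -0.61 for Cldn4 (0.12, 0.00044), -0.34 for Cldn7 (0.11, 0.027) and -0.43 for F11r (0.14, 0.033), all by edgeR with mouse as a block. Cldn1, Ocln and Cgn had similar fold changes of -0.45, -0.46 and -0.41 with larger errors, and Tjp1 was at -0.01. The general epithelial genes Epcam (-0.51), Krt18 (-0.60), Krt8 (-0.43) and Krt19 (-0.46) were lower too, while Cdh1 did not pass (-0.21, adjusted p = 0.23 by edgeR). Cycling cells were deeper, at 2334 ± 659 UMIs per cell against 1085 ± 209 (SD, n = 7), and the part of depth was not tested. Cldn3 and Cldn4 passed with any 1 mouse left out. Cldn7 did not pass without replicate 1, 2, 3, 5, 7 or 8 (adjusted p from 0.051 to 0.086 by edgeR), and F11r not without replicate 1, 2, 3 or 5 (0.056 to 0.19). In the WT titles alone only Cldn4 passed. With cells of at least 500 genes the changes of Cldn3 and Cldn4 were -0.46 and -0.70. Without the mouse block 0 of 8 members passed by edgeR, 1 of them at an unadjusted p under 0.05, and DESeq2 kept Cldn3 and Cldn4. With size scaling the 501 higher and 499 lower calls became 735 and 382, and Cldn7 and F11r were lost. Of the other junction genes Ybx3 was higher in cycling cells (log2 fold change 0.71) and Cxadr, the adhesion molecule CAR, lower (-0.61), out of 20 tested, and Cxadr did not pass without replicate 3 (adjusted p = 0.054 by edgeR). Ybx3 lost its call in 2 of 16 settings, without the mouse block and in the WT titles alone.

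The other split separated tumor cells whose acute-phase and defense transcripts outnumbered their milk transcripts, 1631 cells, from those with more milk transcripts, 4222 cells. By edgeR 0 of 8 members passed, 0 at an unadjusted p under 0.05 and 0 by DESeq2, where 1.7% of 5637 genes passed. With no filter on low counts 2 members were at an unadjusted p under 0.05 by edgeR, and without replicate 4 there was 1. In both settings 0 passed. Cldn3 was at 1146 ± 472 CPM in acute-phase and 1134 ± 388 CPM in milk-secretory cells (SD, n = 7). The largest fold change among the members was that of Cgn, 0.36 with a standard error of 0.21, higher in 6 of 7 mice. Of the other junction genes Cxadr rose in acute-phase cells (log2 fold change 0.51, adjusted p = 0.040 by edgeR), out of 22 tested, but it did not pass without replicate 2, 3, 4, 5 or 7 (0.082 to 0.23).

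**Figure D5:**
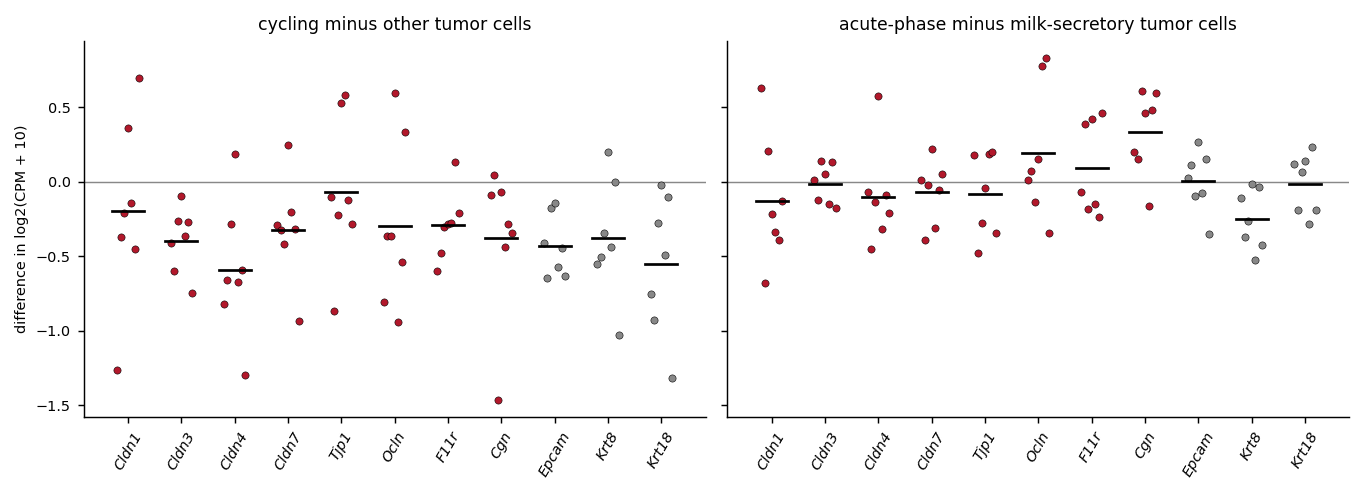
Difference in log2(CPM + 10) within each mouse for cycling minus other tumor cells (left) and acute-phase minus milk-secretory tumor cells (right), with 1 point per mouse and a line at the mean; junction genes in red, Epcam, Krt8 and Krt18 in gray. On the left all 7 points of Cldn3 lay below 0, as did those of Epcam and Krt18, and on the right the means of Cldn3, Cldn4 and Cldn7 were -0.02, -0.10 and -0.07.

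Each member was also compared with all genes of at least 20 CPM in 1 class by Pearson's r of log2(CPM + 10) over 41 sums of class and mouse, a description, since sums of a mouse share a library. Cldn3 was most like Epcam (0.91), Cldn7 (0.91) and Syne4 (0.90), and Cldn7 was most like Tmc4 (0.92), Smagp (0.91) and Syne4 (0.91). Cldn4 was closest to the luminal keratins Krt18 (0.94) and Krt8 (0.92), with Urah (0.93) between them. Krt18 too was higher in hormone-sensing cells, at 5386 CPM against 2410 in tumor cells.

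Cldn1 was most like Ldb3 (0.88), Timd2 (0.87) and Chrdl2 (0.86), all at under 1 CPM in hormone-sensing cells. Ocln was most like Marveld3 (0.94), a protein of its own MARVEL family, then Esrp2 (0.92) and Klf5 (0.91). Cgn was most like Rab15 (0.94), Adig (0.92) and Macc1 (0.91). Cldn5 was closest to 8430408G22Rik, Ccm2l and Bmx (each 0.92), a likeness that rests on few UMIs. Tjp1 was nearest to Plcb1 (0.81), Adgrl2 (0.81) and Myo10 (0.80), and F11r to Itga6 (0.77), Zfand5 (0.75) and Ralgds (0.73), the lowest likeness of the 9. Among the members the closest pair was Cldn3 and Cldn7, at 0.91.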

How the data were processed

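Drop-seq libraries were made by the authors from single-cell suspensions of the tumors, and the deposited matrices hold raw UMI counts per gene and barcode. The submitters' processing notes name STAR and FastQC, without versions, and the builds GRCh37.p13 and hg19, whereas the rows carry mouse symbols and the study's methods describe a mouse genome with the PyMT sequence. Libraries held 1349899 to 4905989 UMIs.

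Cells were barcodes with 200 to 6000 genes, mitochondrial genes dropped. A cell took the class whose marker list had at least 2 UMIs and a Poisson p under 0.01 against the list's share in other cells and led the next list clearly. Cells with markers of several classes (1464) were set aside, which stood in for a doublet caller, and 1251 cells got no class. The scoring was settled on marker purity after the files were seen. UMIs were summed per mouse and class for sums of at least 10 cells. Sums were compared with edgeR 4.0.16 (TMM, filterByExpr, quasi-likelihood, mouse as block, Benjamini-Hochberg), with DESeq2 1.42.0 as an alternative, and clusters with Seurat 5.3.0. Both classes of a pair came from the same animal. Members were tested only between states of tumor cells; their differences between classes are means over mice of log2(CPM + 10), and a planned sign-flip test there was dropped, since their choice used those levels. Fits were tested on simulated counts. Each library is a separate tumor. With mouse as a block, p-values set a difference within mice against how it varies from mouse to mouse. They rest on 7 mice, or on 3 in the myoepithelial and endothelial comparisons. The named genes were the 9 members, up to 10 other junction genes past the threshold in a comparison, and 3 genes most like each member. Gene coordinates came from GENCODE vM21 and promoter windows, with their own starts, from RefSeq, with all 9 members matched. The starts can differ. The only Tjp1 window, at chr7:65371195-65371494, lies inside the GENCODE span of the gene. So does the second Cldn7 window, at chr11:69965171-69965470, which holds the Cldn7 matches.

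The members, gene lists and comparisons were chosen with earlier results of these data known. Alternatives were other scalings, tools, filters, class rules and left-out mice. Ratios that rest on 3 or fewer counts carry a counting interval, and the limit of a count of 0 is 3 counts.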

Additional observations from a re-analysis of the deposited data

Results flagged for a closer look

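Within groups of 7 mice, 17 of 72 sets of member values had 1 mouse apart from the others by Dixon's criterion. Its chance rate of about 1 in 20 holds for normally distributed values, not for values mostly at 0. Sets at 0 in every mouse were among the 72 and could not be flagged. Most of the 17 were classes where the gene was near 0 and 1 or few UMIs made the gap. In fibroblasts replicate 2 stood at 525 CPM for Cldn3, 1216 for Cldn4, 154 for Cldn7 and 51.2 for F11r, and the next mouse was at 190, 185, 56.5 and 20.6 CPM. Replicate 3 stood at 30.2 CPM for both Tjp1 and Cgn in fibroblasts, and replicate 4 at 25.7 for Ocln. In hormone-sensing cells replicate 1 stood at 147 CPM for Cgn and 21.0 for Cldn5, and replicate 7 at 14.0 for Cldn1. In macrophages replicate 1 stood at 55.1 CPM for Cldn7 and replicate 4 at 1.87 for Tjp1 and Cgn, and in T/NK cells replicate 4 was at 5.14 for Ocln. Among differences within mice, the apart values were -1.63 for Cldn5 in replicate 1 (tumor minus hormone-sensing, from 1 UMI), 0.57 for Cldn4 in replicate 4 (acute-phase minus milk-secretory) and -1.46 for Cgn in replicate 3 (cycling minus other).

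Some cells outside the 7 classes held member UMIs above what a count of 0 allows. Pooled over mice, B or plasma cells stood at 47.9 CPM for Cldn3 and 53.8 for Cldn4, erythroid cells at 238 for Cldn4, and the 16 neutrophil cells at 438 for Cldn3 and 548 for Cldn7. Free RNA stood at 54.2 to 920 CPM over libraries for Cldn3, 118 to 582 for Cldn4 and 52.3 to 286 for Cldn7, so these values lay below or within its range, except that of Cldn7 in neutrophils, which rests on 5 UMIs. Cells with markers of several classes held Cldn3 at 970 CPM.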

How the results depend on the processing

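Signs were followed only in tested values, so a member between classes that changed sign within its spread counted as staying. Of 666 gene values under an alternative, 563 stayed, 73 lost their call and 18 untested values of members between classes moved beyond their spread. Another 12, all tested values of members that had not passed, changed sign. These were, in log2, Cldn1 at 0.0090 (CB titles alone), Cldn3 at 0.0047 (size scaling), F11r at -0.057 (no filter) and -0.043 (WT titles alone) for acute-phase cells, and Tjp1 at 0.067 (size scaling) and 0.0032 (500 genes) for cycling cells. Leaving out 1 mouse gave -0.059 to 0.0096 for Cldn3, -0.15 to 0.021 for Tjp1 in acute-phase cells and -0.19 to 0.11 for Tjp1 in cycling cells. The cause was not tested. Counts of calls moved over 1.5 times as follows. Without a filter, which adds genes, they were 3202 (tumor against hormone-sensing), 702 (endothelial) and 207 (acute-phase). WT titles alone, with fewer mice, gave 418, 22 (acute-phase) and 171 (cycling), and CB titles alone 50 for acute-phase. Clusters gave 531 for myoepithelial, and DESeq2 62 for acute-phase. Without the replicate block the count was 1 for acute-phase and 167 for cycling. Leaving out 1 mouse gave 1078 to 2160, 48 to 168, 322 to 484, 58 to 106 and 541 to 1029 calls in the 5 comparisons in order (tumor against hormone-sensing, against myoepithelial, endothelial, acute-phase, cycling). Single mice that moved a count this far were replicate 4 (1078 for tumor against hormone-sensing, 48 for myoepithelial, 63 for acute-phase), replicate 5 (484 for endothelial) and replicate 1 (58 for acute-phase, 541 for cycling). WT titles alone for myoepithelial, CB titles alone for endothelial, and 500 genes or 20 cells for either left too few sums. Size scaling turned the endothelial calls from 106 higher and 202 lower into 197 and 161. Of the other levels by class, those moved beyond their spread by classes from clusters were in immune, endothelial and myoepithelial cells. Size scaling turned the myoepithelial calls from 80 higher and 70 lower into 36 and 98 (DESeq2 gave 29 and 77), and the median of all genes there from 0.75 to 0.05.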
